A study of Homo sapiens with 6 samples.

Results

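The transcripts described here are those of the mitochondrial genome in OVCAR3 cells treated with THZ531. They were taken as every locus of the deposited expression table whose hg38 coordinates lie on chrM, which gave 17 loci of 47577. A minimum value of 10, to be reached by 3 or more of the 6 libraries, was passed by 15 of these and by 17568 of all loci. OVCAR3 cells derive from a high-grade serous ovarian carcinoma, and THZ531 is a covalent inhibitor of CDK12 and CDK13, kinases that phosphorylate the RNA polymerase II that transcribes nuclear genes. One group of 3 libraries came from cultures given DMSO for 6 h, and the other group of 3 from cultures given 200 nM THZ531 for 6 h, both of unmodified cells of this 1 line, and polyadenylated RNA was sequenced. The titles, descriptions and treatment labels of the samples name THZ531, while the text of their treatment protocol gives THZ1, another covalent kinase inhibitor, at this dose, and the samples were grouped by their titles.

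Human mitochondrial DNA is a small circular genome that encodes subunits of respiratory complexes I, III, IV and V, both rRNAs of the mitochondrial ribosome and a set of tRNAs. It is not transcribed by RNA polymerase II. POLRMT, the mitochondrial RNA polymerase, copies each strand, with TFAM and TFB2M, into long transcripts that cover many genes and are then cut, mostly at the tRNAs that lie between the mRNAs. Most mitochondrial mRNAs and rRNAs receive a short poly(A) tail, which lets them enter libraries selected for polyadenylated RNA. Most genes are read from one template strand, while the other yields a single mRNA, MT-ND6, a few tRNAs and much RNA antisense to the genes, which is degraded in the organelle. Because RNA polymerase II does not make these transcripts, they can serve as a reference against which nuclear transcripts are scaled when RNA polymerase II is disturbed.

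The table gave no symbol for any of the 17 loci, so that their content was read from the overlap with the 37 genes of the GENCODE v44 annotation on the 16569 bases of chrM. Several genes are joined in 1 locus, and the values cannot be assigned to single genes. On the plus strand, 2 long loci hold most of the coding content. The first, chrM:1670-5512, covers MT-RNR2 (the large rRNA), MT-ND1 and MT-ND2 and is called RNR2-ND2 here. The second, chrM:5584-12142, covers MT-CO1, MT-CO2, MT-ATP8, MT-ATP6, MT-CO3, MT-ND3, MT-ND4L and MT-ND4, which encode subunits of complexes I, IV and V, and is called CO1-ND4. The locus ND5, chrM:12337-14644, holds MT-ND5 of complex I and also runs opposite 94.48% of MT-ND6. The locus CYB, chrM:14761-15953, holds MT-CYB of complex III and the tRNA gene MT-TT, and the locus named control, chrM:15998-16490, lies in the non-coding control region and opposite a part of MT-TP. MT-RNR1, the small rRNA, is represented by 3 pieces, RNR1-a at chrM:692-718, RNR1-b at chrM:1262-1292 and RNR1-c at chrM:1476-1632, which together cover 19.29% of it. RNR1-c also runs into the tRNA gene MT-TV, which makes up 19.75% of this locus. The remaining plus-strand loci are a piece of MT-TH, chrM:12167-12200, and MT-TS2, chrM:12207-12265.

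Of the 12 protein-coding genes of the plus strand, 12 were covered over at least 98% by the tested loci of that strand. MT-ND6, the protein-coding gene of the minus strand, was covered over 0% by a locus of its own strand, and no value can be given for it. On the minus strand the 7 loci are MT-TP, the tRNA for proline at chrM:15956-16023, and 6 loci antisense to genes of the plus strand. The antisense loci are as-CO1 at chrM:6888-7189, as-CO2 at chrM:7638-7669, as-ND4 at chrM:11945-11969, as-ND5-a at chrM:13292-13379, as-ND5-b at chrM:13460-13488 and as-TT at chrM:15889-15914. The table lists no strand. It was read from the identifiers, whose order forms 2 ascending series along chrM, one holding the exact span of MT-TS2 and the other that of MT-TP. The order was checked on loci with a symbol whose 2 neighbours by identifier lie on the same strand. Of these 23417 loci, 23090 (98.6%) lay on the strand of their neighbours. Loci whose neighbours lie on different strands were not part of this check. Whether the reads were counted by strand is not given in the sources used here, and without that setting reads of an antisense locus and of the gene opposite it cannot be told apart.

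Sequences of shorter loci of both strands follow. They are given 5′ to 3′ along the strand of the locus, from chrM of hg38, with T for U and with runs of at least 3 G in capitals. The first pair are pieces of MT-RNR1, and the next are the loci antisense to MT-CO2, MT-ND5 and MT-TT.
RNR1-a, chrM:692-718, plus strand: cacatgcaagcatccccgttccagtga
RNR1-b, chrM:1262-1292, plus strand: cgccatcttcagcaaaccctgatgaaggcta
as-CO2, chrM:7638-7669, minus strand: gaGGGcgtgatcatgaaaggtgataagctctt
as-ND5-a, chrM:13292-13379, minus strand: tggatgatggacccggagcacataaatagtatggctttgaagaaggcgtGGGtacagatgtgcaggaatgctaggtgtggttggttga
as-ND5-b, chrM:13460-13488, minus strand: aggtattcctgctaatgctaggctgccaa
as-TT, chrM:15889-15914, minus strand: tggtgtattagtttatactacaagga

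The minus-strand loci were richer in G. G made up between 23.1% and 37.5% of the bases of the 7 minus-strand loci and between 9.84% and 20.6% of those of the 10 plus-strand loci, so that the ranges did not overlap. C went the other way, with 7.69% to 24.1% on the minus strand and 26.1% to 37.0% on the plus strand. A run of GGG was present in 4 of the 7 minus-strand loci and in 5 of the 10 plus-strand loci, which are longer on the whole, while 54.6% of all 32-base windows and 89.1% of all 88-base windows of the minus strand hold one, against 10.1% and 25.5% of such windows of the plus strand. The windows overlap each other.

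MT-TP is the one locus past the minimum that consists of a tRNA gene alone, while other tRNA genes lie within longer loci. It is shown with its anticodon, found as the middle of a 7-base loop closed by a 5-base stem, in capitals.
MT-TP, chrM:15956-16023, minus strand: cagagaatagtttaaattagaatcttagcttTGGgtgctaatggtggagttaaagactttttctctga
The loci of the tRNA genes MT-TH and MT-TS2 stayed below the minimum. The piece of MT-TH had 1 to 3 reads per library and MT-TS2 had 2 to 8, and no comparison was made for them. Each of the 15 loci past the minimum passed it in all 6 libraries.

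The libraries held 53054048 to 70986130 counted reads, of which 4770129 to 7171701 fell on the mitochondrial loci. The serous epithelial markers fixed for the check of the cell line, PAX8, EPCAM, KRT7, KRT8, MUC16, WT1, MECOM and SOX17, passed the minimum in 8 of 8 cases. Their summed value was 320130 to 329900 in DMSO and 397574 to 407309 in THZ531 on the deposited scale, on which the sum over all loci was also higher. KRT8 (153783 in DMSO and 230529 in THZ531), EPCAM, KRT7 and SOX17 were higher in all THZ531 libraries. PAX8 (11272 and 1241) and MUC16 (4598 and 3334) were lower in all of them, and the groups overlapped for WT1 and MECOM. Of the 3 fibroblast markers, COL1A1 (995 in DMSO, 2190 in THZ531) and COL3A1 (724 and 1080) rose and PDGFRB was below the minimum, and their summed value was 1629 to 1868 in DMSO and 3142 to 3446 in THZ531. The 3 leukocyte markers summed to 407 to 496 and 404 to 490, with CD3E at 0 in all libraries, and the 2 endothelial ones to 77.8 to 123 and 64.2 to 158. The part of these markers in the results was not tested. In bulk RNA, a change in the number of cells and a change in the RNA of each cell cannot be told apart.

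The mitochondrial loci took a similar share of the reads in both groups. With replicates in the order 1, 2 and 3, as in all values below, it was 8.50%, 9.14% and 10.1% for DMSO. For THZ531 it was 8.99%, 9.21% and 8.80%. All THZ531 libraries lay within the range of the DMSO libraries. The mean was 9.25% ± 0.808 (SD, n = 3) in DMSO and 9.0% ± 0.205 (SD, n = 3) in THZ531, so that the difference of -0.244 percentage points was smaller than the spread of the DMSO libraries. The exact binomial 95% interval of each share, which covers counting error only, was narrower than the distance between any pair of libraries, for example from 8.49% to 8.50% in DMSO replicate 1. Without DMSO replicate 3, the library with the highest share, the difference was 0.185 percentage points, with THZ531 higher.

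On the deposited scale the same reads gave a higher sum in THZ531. The summed normalised value of the 17 loci was 4707140, 5098550 and 5722239 in the DMSO libraries, and 6007869, 6068338 and 5801669 in the THZ531 libraries. Every THZ531 library lay above every DMSO library. This was also so for the summed value of all loci, at 55389676 to 56639224 in DMSO and 65875609 to 66820371 in THZ531. The higher sum is thus not particular to the mitochondrial loci. The mean of the mitochondrial sum rose from 5175976 ± 511960 to 5959292 ± 139814 (SD, n = 3 each), a ratio of 1.15 or 0.20 on the log2 scale. The spread among the DMSO libraries was thus wider than that among the THZ531 libraries on both scales. No test was made of these sums, because the loci were chosen with results of these data known.

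**Figure D1:**
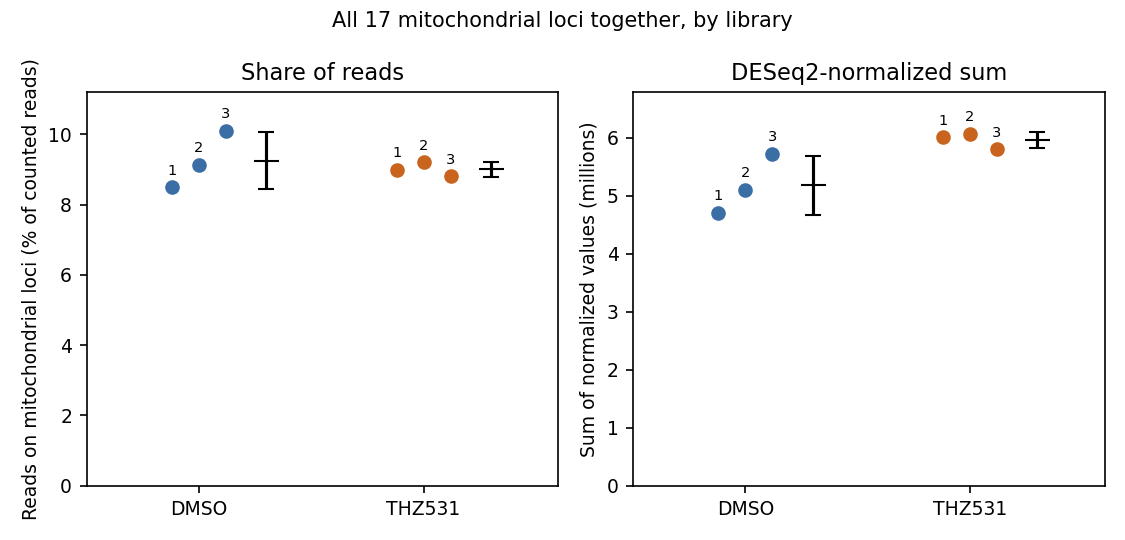
Share of counted reads on the 17 mitochondrial loci in percent (left) and their summed DESeq2-normalised value in units of 1e6 (right), with 1 point per library, numbered by replicate, and the mean and SD of each group beside the points. The THZ531 shares of 8.80% to 9.21% lie within the DMSO range of 8.50% to 10.1%, while the THZ531 sums lie above all DMSO sums, as do the sums over all loci.

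Levels were compared between loci per length, as normalised reads per kilobase. RNR2-ND2 stood highest in DMSO at 435180 ± 47581 and in THZ531 at 516021 ± 13362 (mean ± SD, n = 3, here and for the other levels per kilobase). CO1-ND4 followed with 425372 ± 40736 in DMSO and 483758 ± 12991 in THZ531, and in DMSO these neighbours differed by less than their spread. CYB had 251152 ± 18578 and 291140 ± 9022, ND5 had 167292 ± 16163 and 183428 ± 5540, and the control region had 30265 ± 3473 and 32492 ± 812, in DMSO and THZ531 respectively. From CO1-ND4 down, the distance between each pair of neighbours in this order was larger than their SDs in both groups. RNR2-ND2 and CO1-ND4 together held 86.2% of the mitochondrial sum in DMSO and 86.5% in THZ531. The short loci were left out of this order, since a locus shorter than a read collects reads that extend beyond it.

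**Figure D2:**
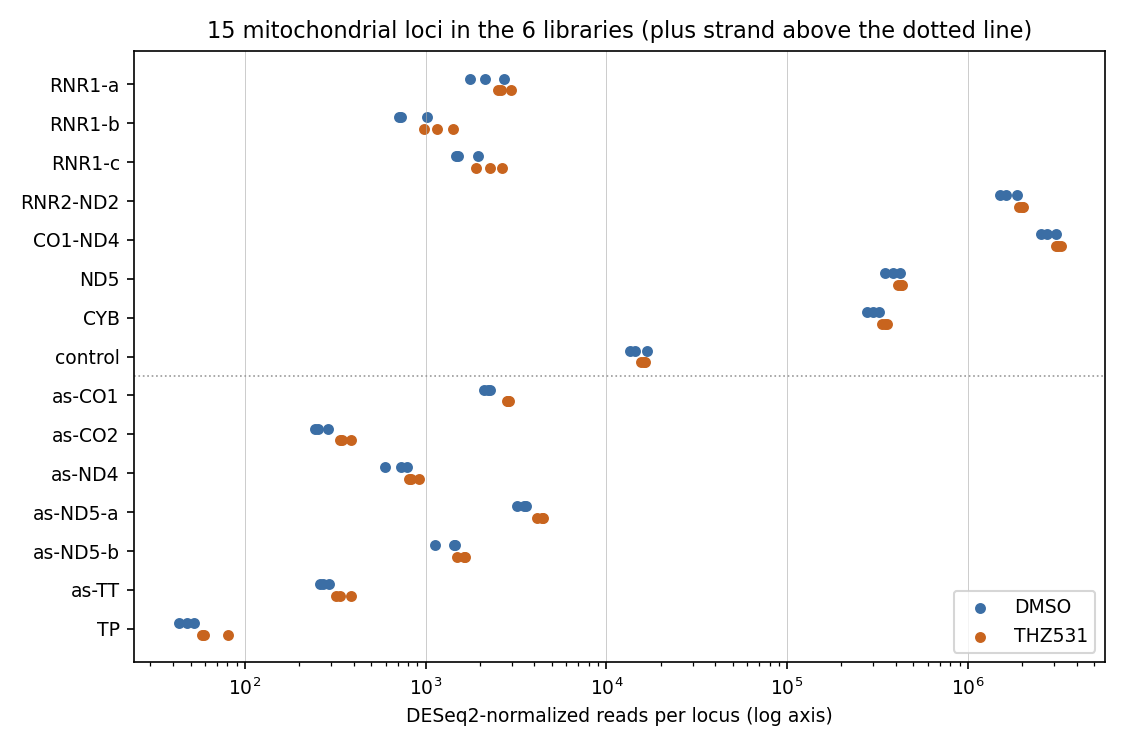
DESeq2-normalised reads (log axis, not corrected for length) of the 15 loci past the minimum, with 1 point per library, and with the 8 plus-strand loci above the dotted line and the 7 minus-strand loci below it. The values span from 42.9 for MT-TP (TP) to 3264646 for CO1-ND4, and the THZ531 points lie above all DMSO points for 7 of 7 minus-strand and 3 of 8 plus-strand loci.

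All differences of single loci were small. With limma on log2(value + 1), 0 of the 15 loci passed a fold change of 1.5 together with an unadjusted p of 0.05 or less, the call used for every locus here, whereas 39.5% of the 17568 loci tested did so. The count was also 0 with edgeR's quasi-likelihood test and with DESeq2 on the recovered reads. Without the demand on the fold change, 13 of the 15 loci were higher in THZ531 at a Benjamini-Hochberg adjusted p of limma of 0.05 or less, and 0 were lower. Of all loci tested, 34.6% were higher and 34.1% lower, together 68.6%. The count of 13 was the same at an unadjusted p of 0.05. It was 13 with edgeR and 12 with DESeq2, and it fell to 6 when limma did not let the variance depend on the level, and to 8 without DMSO replicate 1. The fitted difference was above 0 for 15 of 15 loci on this scale, with a median of 0.31 on the log2 scale, against -0.01 over all loci tested. Without DMSO replicate 1 the median was 0.18. These signs hold for the deposited scaling, and under scaling to RPL34 they turned for 14 of the 15 loci, as given below. The groups did not overlap, with THZ531 above, for 10 of the 15 loci, against 36.0% of all loci, and with THZ531 below for 0 loci, against 35.7%.

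Among the plus-strand loci, the long ones differed least on the deposited scale. RNR2-ND2 had normalised values of 1509678, 1637237 and 1870281 in the DMSO libraries and 2031275, 1988871 and 1929065 in the THZ531 libraries. The groups did not overlap, and the log2 fold change was 0.25 (SE 0.06, limma adjusted p = 0.00146). CO1-ND4 had 2546030, 2748484 and 3075536 in DMSO, and 3158068, 3264646 and 3096198 in THZ531. The lowest THZ531 library lay just above the highest DMSO library, and the log2 fold change was 0.19 (SE 0.06, limma adjusted p = 0.00787). CYB, which encodes the cytochrome b of complex III, had 277746, 299065 and 322063 in DMSO and 350277, 356313 and 335401 in THZ531. All THZ531 values were higher, and the log2 fold change was 0.22 (SE 0.05, limma adjusted p = 6.16e-04).

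The ND5 locus had 348690, 386339 and 423299 in DMSO and 434360, 426370 and 409328 in THZ531. THZ531 replicate 3 lay below DMSO replicate 3, and the log2 fold change of 0.14 (SE 0.05) had a limma adjusted p of 0.0328. The control region had 13499, 14442 and 16821 in DMSO, and 16386, 16079 and 15592 in THZ531. The DMSO range enclosed all THZ531 values, and the log2 fold change of 0.11 (SE 0.06) did not pass the test (limma adjusted p = 0.112). Among the 5 long plus-strand loci these had the smallest differences.

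The pieces of MT-RNR1 differed more, and they also varied more between libraries. RNR1-b had 710, 727 and 1021 in DMSO and 1413, 981 and 1148 in THZ531. The groups overlapped through DMSO replicate 3 and THZ531 replicate 2, and the log2 fold change was 0.53 (SE 0.13, limma adjusted p = 0.00207). RNR1-c had 1464, 1514 and 1946 in DMSO and 2644, 1907 and 2256 in THZ531, with an overlap of the same libraries and a log2 fold change of 0.47 (SE 0.11, limma adjusted p = 0.00116). RNR1-a had 1763, 2118 and 2719 in DMSO and 2955, 2517 and 2625 in THZ531. Its groups overlapped as well, and its log2 fold change of 0.31 (SE 0.11) had a limma adjusted p of 0.0180, but of 0.176 with DESeq2. THZ531 replicate 1 had the highest value of the 6 libraries in each of the 3 pieces. RNR1-b and RNR1-c passed the fold change of 1.5 when DMSO replicate 3 was left out, with log2 fold changes of 0.70 and 0.59, and RNR1-b also without THZ531 replicate 2, with 0.66. With all libraries, 0 of the 3 pieces passed it.

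On the minus strand the groups did not overlap, with THZ531 above, for 7 of 7 loci on the deposited scale, against 36.0% of all loci. These loci share the size factor of each library and are not independent of each other. Scaled to the mitochondrial sum, 2 of the 7 stayed apart with THZ531 above, against 21.3% of all loci. The longest, as-CO1, antisense to MT-CO1, had 2094, 2219 and 2260 in DMSO and 2822, 2867 and 2891 in THZ531. Its libraries lay close together within each group, and the log2 fold change was 0.39 (SE 0.05, limma adjusted p = 3.42e-06). The locus as-ND5-a, antisense to MT-ND5, had 3192, 3597 and 3479 in DMSO and 4391, 4445 and 4117 in THZ531. The distance between the groups was wider than either range, and the log2 fold change was 0.34 (SE 0.05, limma adjusted p = 2.49e-05). The short locus as-CO2 had 245, 290 and 252 in DMSO and 335, 385 and 342 in THZ531, a log2 fold change of 0.43 (SE 0.12). For as-ND4, where the groups lay close together, the values were 595, 734 and 785 in DMSO and 827, 921 and 805 in THZ531. In as-ND5-b they were 1127, 1457 and 1431 in DMSO and 1660, 1630 and 1494 in THZ531, and in as-TT 259, 272 and 290 against 387, 338 and 317. The log2 fold changes of as-ND4, as-ND5-b and as-TT were 0.28, 0.26 and 0.34, and the limma adjusted p-values of all 4 short loci lay between 0.00408 and 0.0189. Each of these 4 is between 25 and 32 bases long and held between 245 and 1660 normalised reads.

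MT-TP had 42.9, 52.0 and 47.9 in DMSO and 57.9, 59.1 and 80.8 in THZ531. All THZ531 values were higher, but the log2 fold change of 0.45 (SE 0.26) did not pass the test (limma adjusted p = 0.137). At this depth its 95% interval ran from -0.10 to 1.00.

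The summed minus-strand loci rose from 8240 ± 595 to 10391 ± 308 normalised reads (SD, n = 3 each), which is 0.33 on the log2 scale, and the summed plus-strand loci rose by 0.20. With each library scaled to RPL34 both strands were lower, with median differences of -0.26 over the plus-strand loci and -0.15 over the minus-strand loci. Per kilobase, the minus-strand loci lay between 1.71% (as-CO1) and 27.6% (as-ND5-b) of the plus-strand locus opposite them in DMSO, and between 1.96% and 30.0% in THZ531. For as-ND5-a this ratio was 23.3% ± 1.55 in DMSO and 26.7% ± 0.520 in THZ531, and for as-CO1 it was 1.71% ± 0.101 and 1.96% ± 0.0622 (SD, n = 3 each). A ratio within a library does not depend on the scaling, but a short locus collects reads that extend beyond it.

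**Figure D3:**
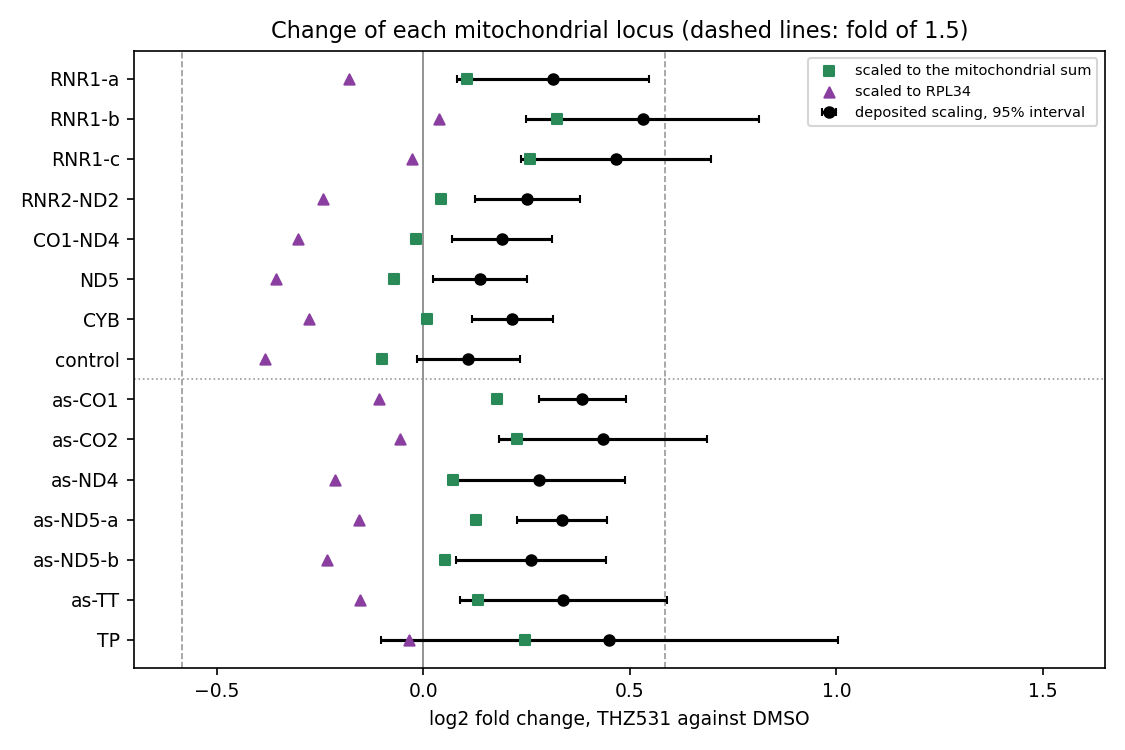
Log2 fold change of THZ531 against DMSO for the 15 loci past the minimum, as deposited with the 95% interval of limma (circles), scaled to the mitochondrial sum (squares) and scaled to RPL34 (triangles), with the plus strand above the dotted line and dashed lines at a fold change of 1.5. The circles lie between 0.11 and 0.53, and with scaling to RPL34 they move below 0 for all loci but RNR1-b at 0.04.

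The make-up of the mitochondrial reads was compared after each library had been scaled to the same mitochondrial sum, which takes the size factors out of the comparison. The mitochondrial loci are themselves the reference here. RNR2-ND2 and CO1-ND4 made up 86.2% of that sum in DMSO and 86.5% in THZ531, so that together they are held near 0 by construction. Loci outside the sum are under no such limit. With limma 0 of the 15 loci passed the fold change of 1.5 together with the unadjusted p, against 41.0% of all loci. At an adjusted p of 0.05 or less, at any fold, 2 loci were higher and 0 were lower, against 19.2% and 40.6% of all loci, together 59.8%. The count of 2 was the same at an unadjusted p, with edgeR and with DESeq2, but it was 0 without DMSO replicate 2, without THZ531 replicate 1, without THZ531 replicate 3, without the minimum and without a trend of the variance, and 3 without DMSO replicate 1 or 3. The higher loci were RNR1-b, with a log2 fold change of 0.32 (limma adjusted p = 0.0229), and RNR1-c, with 0.26 (limma adjusted p = 0.0398). The relative difference was above 0 for 7 of 7 minus-strand loci and for 5 of 8 plus-strand loci, and for CO1-ND4, ND5 and the control region it was -0.02, -0.07 and -0.10.

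As shares of the mitochondrial sum, the groups did not overlap for 5 loci, 3 of them higher and 2 lower in THZ531. For all loci tested, the values scaled to the mitochondrial sum did not overlap with THZ531 above for 21.3% and with THZ531 below for 42.3%. RNR2-ND2 went from 32.3% ± 0.343 to 33.3% ± 0.518 (SD, n = 3 each). Its shares were 32.1%, 32.1% and 32.7% in DMSO and 33.8%, 32.8% and 33.3% in THZ531, so that the nearest libraries of both groups lay close together. ND5 went from 7.46% ± 0.101 to 7.10% ± 0.110, with 7.41%, 7.58% and 7.40% in DMSO and 7.23%, 7.03% and 7.06% in THZ531. The control region went from 0.288% ± 0.00546 to 0.269% ± 0.00389. The antisense loci as-CO1 and as-ND5-a went from 0.0425% to 0.0480% and from 0.0664% to 0.0724%. CO1-ND4 (53.9% and 53.2%) and CYB (5.80% and 5.83%) overlapped between the groups. Of the 5 loci whose shares did not overlap, 0 passed limma at an adjusted p of 0.05 on the scaled values. That fit takes its variance in part from all loci tested, with an SE of 0.12 for RNR2-ND2 and 0.09 for the control region on the log2 scale. It does not measure the spread of the shares alone, so it cannot decide whether the shares differed.

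**Figure D4:**
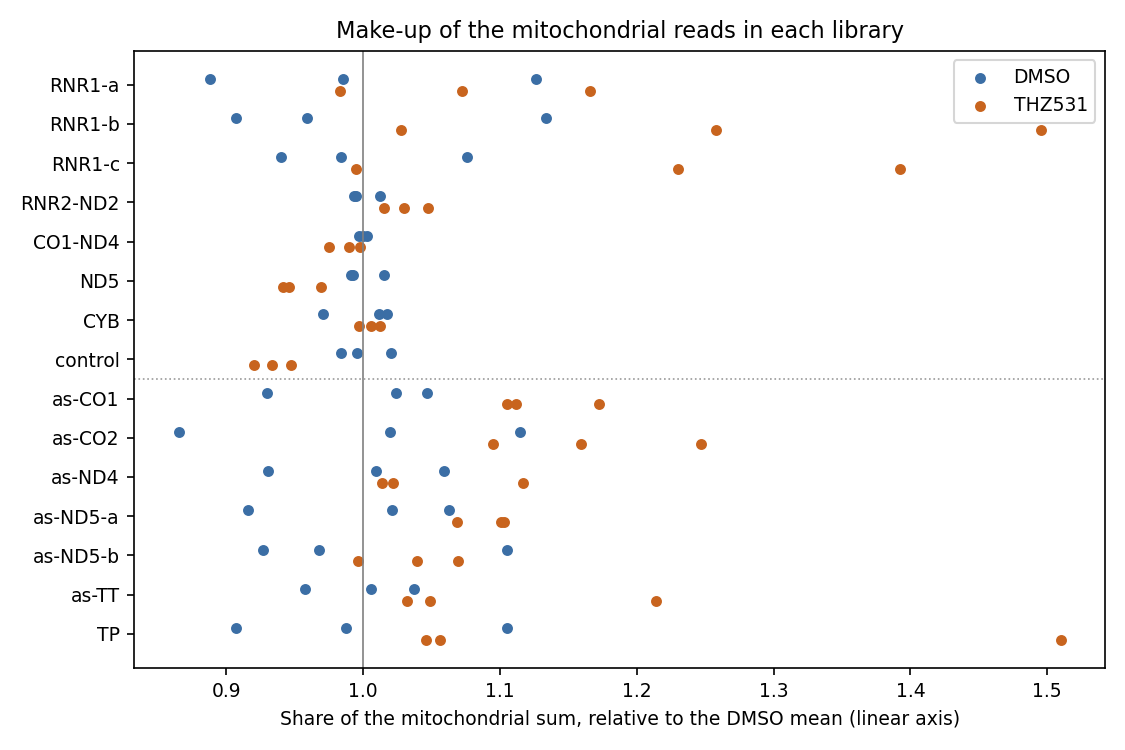
Share of each of the 15 loci in the mitochondrial sum of its library, divided by the mean share in DMSO (linear axis), with 1 point per library. ND5 and the control region lie lower in all THZ531 libraries, RNR2-ND2, as-CO1 and as-ND5-a lie higher in all of them, and RNR1-b, RNR1-c and MT-TP (TP) spread most among the THZ531 libraries.

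The sign of the mitochondrial loci depended on the scaling. Under the deposited size factors the median over the 15 loci was 0.31. It was 0.07 when every library was scaled to the same total, 0.11 with the mitochondrial sum, 0.29 with the upper quartile and -0.18 with RPL34 as the reference. The median over all 17568 loci went with it, from -0.01 as deposited to -0.25, -0.21, -0.03 and -0.50. A scaling moves every locus alike, so that the distance between both medians, 0.32, is the same under each of them by construction. The mitochondrial sum is made of the mitochondrial loci themselves and is no independent reference for them. With the same total, as-CO1 was higher at 0.14 and the control region was lower at -0.13 at a limma adjusted p of 0.05 or less, and with RPL34 the loci ND5 (-0.36), CYB (-0.28) and control (-0.38) were lower and 0 were higher. At that threshold 21.9% of all loci were higher and 46.7% lower with the same total (together 68.6%), and 9.62% were higher and 58.2% lower with RPL34 (together 67.9%).

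With the mitochondrial sum as the reference, the balance of the nuclear transcripts tilted. As deposited, 2751 of the 17568 loci were called higher and 4197 lower in THZ531 at a fold change of 1.5, so that 60.4% of the calls were lower. Scaled to the mitochondrial sum, which shifts THZ531 against DMSO by -0.21 on the log2 scale, the counts were 1766 and 5436, and 75.5% of the calls were lower. The mitochondrial sum itself ran from 4707140 to 5722239 among the DMSO libraries, so that the size of this shift depends on which of them are used. Scaling to the same total gave 77.3%, scaling to the same total without the mitochondrial loci 77.6% and scaling to RPL34 87.5%.

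RPL34, a protein of the large cytosolic ribosomal subunit and the reference transcript of the qPCR assays of the study, was compared with the mitochondrial sum. It had normalised values of 14248, 12843 and 11905 in DMSO and 18164, 18337 and 18239 in THZ531. All THZ531 values lay above those of DMSO, with a log2 fold change of 0.49 (SE 0.05, limma adjusted p = 2.42e-07), and of 0.29 when scaled to the mitochondrial sum (limma adjusted p = 0.00801). The mitochondrial sum was 330, 397 and 481 times RPL34 in DMSO, and 331, 331 and 318 times in THZ531, so that the groups overlapped. Ribosomal protein genes have many near-identical pseudogenes, and reads shared with them were not resolved.

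The nuclear genes for the subunits of respiratory complexes I to V, whose products assemble with the mitochondrial ones, were taken from a list of 79 genes. Of these 77 were tested, NDUFS1 was left out because its locus joins more than 1 symbol, and 1 subunit of complex IV was below the minimum. At a fold change of 1.5, 7 rose and 1 fell, against 15.7% and 23.9% of all loci. At a limma adjusted p of 0.05 or less at any fold 74 were higher and 1 lower on the deposited scale, against 34.6% and 34.1% of all loci, but 40 and 6 with the same total, 30 and 2 with the mitochondrial sum, and 1 and 27 with RPL34 as the reference. The median over the 77 was 0.37 on the log2 scale, 0.16 when scaled to the mitochondrial sum and -0.13 when scaled to RPL34, beside -0.01, -0.21 and -0.50 over all loci. By complex, the medians as deposited were 0.33 for I, 0.28 for II, which has no mitochondrially encoded subunit, 0.30 for III, 0.48 for IV and 0.37 for V. At the fold change of 1.5, 1 rose and 1 fell with the same total, against 9.38% and 32.0% of all loci, and 1 rose and 1 fell with the mitochondrial sum, against 10.1% and 30.9%.

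NDUFB2, an accessory subunit of complex I, had 3144, 2527 and 2146 in DMSO and 4839, 4736 and 4668 in THZ531, a log2 fold change of 0.88 (limma adjusted p = 3.28e-07). NDUFA4, a subunit of complex IV, went from 2397 ± 126 to 3819 ± 32.6 (log2 fold change 0.67), and NDUFA12 of complex I from 3585 ± 128 to 5708 ± 288 (0.67). Scaled to the mitochondrial sum, NDUFB2, NDUFA4 and NDUFA12 were at 0.68, 0.47 and 0.46. With RPL34 as the reference they were at 0.39, 0.18 and 0.18. The gene that fell was NDUFV3, an accessory subunit of complex I, with 2633, 2621 and 2560 in DMSO and 1084, 1047 and 1031 in THZ531, a log2 fold change of -1.30 (limma adjusted p = 7.66e-12). It was also lower under both references, with -1.51 relative to the mitochondrial sum and -1.80 relative to RPL34.

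Summed over the nuclear subunits, the normalised value was 546149, 534230 and 517497 in DMSO and 706708, 698339 and 694718 in THZ531. The groups did not overlap, and the ratio was 1.31. The mitochondrial sum was 8.62, 9.54 and 11.1 times this nuclear sum in DMSO and 8.50, 8.69 and 8.35 times in THZ531, so that the ratio of mitochondrial to nuclear respiratory transcripts overlapped between the groups. This ratio needs no size factor, and it was highest in DMSO replicate 3, which also had the highest mitochondrial share.

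The nuclear genes that transcribe, replicate, process and translate the mitochondrial genome were taken from a list of 62, of which 61 were tested, FASTKD5 being part of a joined locus. At a fold change of 1.5, 3 rose and 14 fell, against 15.7% and 23.9% of all loci. The median was -0.25. At a limma adjusted p of 0.05 or less at any fold 22 were higher and 31 lower on the deposited scale, against 34.6% and 34.1% of all loci, but 6 and 34 with the mitochondrial sum and 2 and 46 with RPL34 as the reference. Scaled to the mitochondrial sum, 0 rose and 24 fell at the fold change of 1.5, against 10.1% and 30.9% of all loci. By role, 1 rose and 2 fell of 9 transcription genes, 0 and 4 of 10 replication genes, 1 and 5 of 23 genes for RNA processing and modification, 1 and 1 of 8 for stability and decay, and 0 and 2 of 11 translation factors.

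POLRMT had 2856, 2628 and 2501 in DMSO and 3001, 3207 and 3397 in THZ531. The groups lay apart by a small distance, and the log2 fold change was 0.27 (SE 0.06, limma adjusted p = 7.47e-04). TFAM, which packages mitochondrial DNA and bends its promoters, had 9143, 9718 and 9923 in DMSO and 14507, 13734 and 13761 in THZ531. Its log2 fold change of 0.55 (limma adjusted p = 5.31e-09), a fold of 1.46, was just under the threshold of 1.5. TFB2M, which opens the promoter with POLRMT, went from 1187 ± 42.9 to 1995 ± 48.5 (0.75). LRPPRC, which stabilises mitochondrial mRNAs, went from 22456 ± 953 to 26334 ± 155 (0.23, limma adjusted p = 2.56e-05), and MTPAP, the mitochondrial poly(A) polymerase, from 1290 ± 46.8 to 2196 ± 36.3 (0.77). TRIT1, which modifies tRNAs, had a log2 fold change of 0.65. Scaled to the mitochondrial sum, POLRMT was at 0.06 (limma adjusted p = 0.651) and LRPPRC at 0.02 (limma adjusted p = 0.847). TFAM, TFB2M, MTPAP and TRIT1 were at 0.34, 0.54, 0.56 and 0.45 on that scale. Scaled to RPL34, POLRMT and LRPPRC were at -0.23 and -0.26, while TFAM, TFB2M, MTPAP and TRIT1 were at 0.05, 0.26, 0.27 and 0.16.

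The largest falls of this list were those of MTERF2, PUS1 and DNA2. MTERF2, a DNA-binding factor of the mitochondrial transcription termination factor family, had 337, 328 and 358 in DMSO and 98.2, 69.3 and 102 in THZ531, a log2 fold change of -1.93 (limma adjusted p = 4.49e-08). PUS1, which makes pseudouridine in tRNAs, went from 2992 ± 148 to 972 ± 62.9, a log2 fold change of -1.62. DNA2, a nuclease and helicase that works in mitochondrial DNA replication and in nuclear DNA repair, went from 388 ± 50.1 to 132 ± 39.3, a log2 fold change of -1.59.

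**Figure D5:**
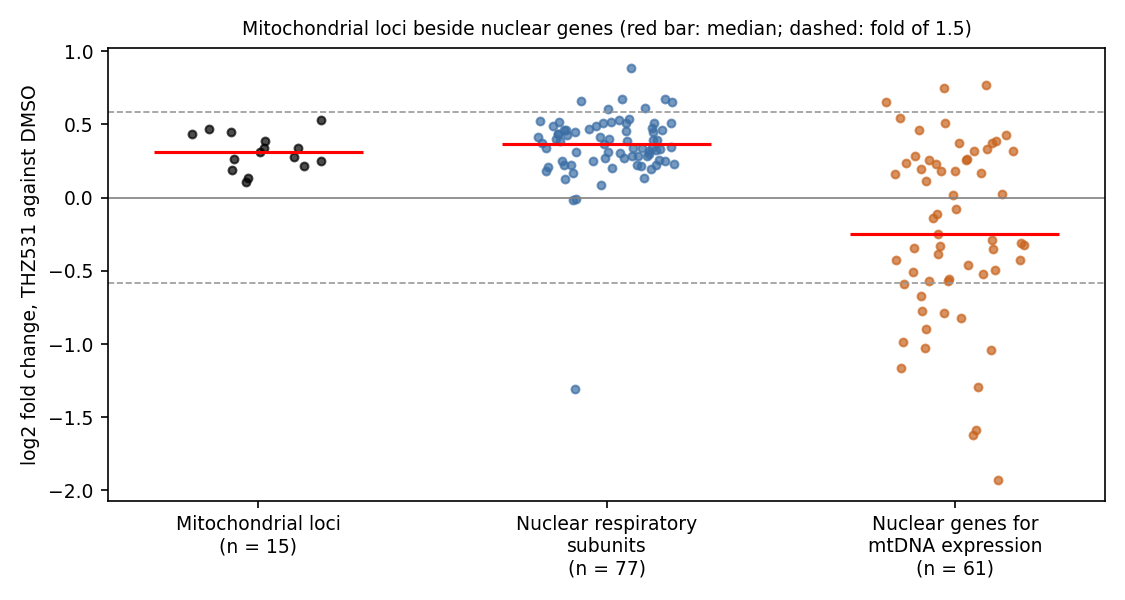
Log2 fold change of THZ531 against DMSO (deposited scaling) for the 15 mitochondrial loci, 77 nuclear subunits of the respiratory complexes and 61 nuclear genes for the expression of mitochondrial DNA, with 1 point per locus, the median as a red bar and dashed lines at a fold change of 1.5. The medians are 0.31, 0.37 and -0.25, and scaled to RPL34 they are -0.18, -0.13 and -0.74.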

How the data were processed

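PolyA RNA of 3 DMSO and 3 THZ531 cultures was sequenced, with TruSeq Stranded mRNA libraries per the labels. The authors mapped the reads with STAR (version 2.7.5a in the submitters' processing notes) to hg38, counted them with featureCounts on the FAST DB annotation, normalised them with DESeq2 and deposited one table. The deposited table thus holds a normalised signal, read counts after division by the size factor of their library, with no correction for length. The strand setting of the counting and what else was done to chrM reads are not given in the sources used here. Multiplied by 1 factor for each library, 100% of the values came out whole (tolerance 0.01 reads), and these were taken as the reads.

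For the test, log2(value + 1) was fitted in R 4.3.3 by limma 3.58.1 with a trend of the variance, two-sided and without covariates. It took in the 17568 loci with 3 or more libraries at a value of 10 or above, and p-values were adjusted by Benjamini-Hochberg over all of them. The fold change is understated at low values. Calls needed both a fold change no smaller than 1.5 and an unadjusted p no larger than 0.05. The recovered reads were also tested with edgeR 4.0.16 and DESeq2 1.42.0, which called 6863 and 6788 of all loci, against 6948 with limma. On simulated counts for this comparison over 17568 genes with 200 changed, limma recovered 190, edgeR 190 and DESeq2 188, with 0 of the wrong sign, and called 211, 210 and 129 of the 17368 unchanged genes. Replicates are separate biological repeats per the series' design text. The number of libraries limits the precision, and intervals of shares are exact binomial.

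Loci were matched to GENCODE v44 by position on hg38. Nuclear copies of mitochondrial DNA were found with BLAST 2.17.0. The loci and gene lists were chosen with earlier results of these data known. Named genes are every chrM locus past the minimum, RPL34, POLRMT, TFAM and LRPPRC, of each nuclear list the 3 called genes with the largest change in each direction and a mean of at least 100, and copies and other transcripts not made by RNA polymerase II with a mean of at least 100. RNU6ATAC, MTRNR2L8 and MIR4485 were named after their values were seen, as were the markers KRT8, PAX8 and MUC16 with their values. Alternatives were pseudocounts of 0.1 and 10, no minimum and a minimum of 50, 5 other scalings, edgeR, DESeq2, limma with no trend, a block by replicate number, a call by adjusted p or by a fold change of 2, and each library left out in turn. The count of loci at an adjusted p at any fold was followed over them after the data had been seen.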

Additional observations from a re-analysis of the deposited data

How the results depend on the processing

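Of the 15 mitochondrial loci, 0 passed the fold change of 1.5 under each alternative with all 6 libraries, and 0 to 2 when a library was left out. Their count at an adjusted p of 0.05 or less at any fold, 13, was 2 with the same total, with the same total without the mitochondrial loci and with the mitochondrial sum, 3 with RPL34 (all lower) and 6 for limma without a trend, and it ran from 8 to 14 when a library was left out. Their median of 0.31 became 0.071 with the same total, 0.067 without the mitochondrial loci in the total, 0.11 with the mitochondrial sum and -0.18 with RPL34, and it ran from 0.18 to 0.36 when a library was left out. Single loci changed sign in 25 of 375 values, through scaling. With the same total these were CO1-ND4 (-0.053), ND5 (-0.11), CYB (-0.028) and control (-0.13). Without the mitochondrial loci in the total they were the same loci at -0.057, -0.11, -0.031 and -0.14. With the mitochondrial sum, of which the loci are themselves a part, they were CO1-ND4 (-0.018), ND5 (-0.071) and control (-0.099). With RPL34 they were all but RNR1-b, namely RNR1-a (-0.18), RNR1-c (-0.027), RNR2-ND2 (-0.24), CO1-ND4 (-0.30), ND5 (-0.36), CYB (-0.28), control (-0.38), as-CO1 (-0.11), as-CO2 (-0.057), as-ND4 (-0.21), as-ND5-a (-0.16), as-ND5-b (-0.23), as-TT (-0.15) and MT-TP (-0.034). The shift of the libraries by the scaling is what these alternatives consist of.

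Of the nuclear respiratory subunits, 8 were called, but 2 with the same total, with the mitochondrial sum and with the same total without the mitochondrial loci, and 1 with RPL34 and at a fold change of 2. Of the genes for mitochondrial DNA expression, 17 were called, but 33 with RPL34, 26 with the same total without the mitochondrial loci and 7 at a fold change of 2. At a fold change of 2, 4042 of all loci were called. The difference in the mitochondrial share of reads, -0.244 percentage points, ran from -0.618 to 0.185 when a library was left out, and was -0.0614 without the 2 most abundant loci and -0.244 with the nuclear copies added.

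Libraries with the same replicate number did not deviate together (correlations of 0.00, 0.02 and -0.04 over all loci), so that the numbers were not taken to pair the samples. With the replicate number as a block, 6918 of all loci were called instead of 6948, and 0 of the mitochondrial loci, 17 and 8 genes of the nuclear lists, while the 2 mitochondrial loci higher relative to the mitochondrial sum became 0. The share of reads was not fitted with a block, since its mean difference is the same with it. Depth was not the limit for the long loci, while MT-TH and MT-TS2 could not be compared with 1 to 8 reads per library.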

Other observations

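Transcripts of RNA polymerase III are also made without RNA polymerase II, and 7 of the 15 found in the table passed the minimum. RN7SL1, an RNA of the signal recognition particle, had 2150, 1465 and 1727 in DMSO and 2344, 2380 and 2057 in THZ531, with a log2 fold change of 0.36 (limma adjusted p = 0.00505, DESeq2 adjusted p = 0.0672) and groups that overlapped. RN7SL2, its near-identical relative, was at -0.17 (limma adjusted p = 0.411), and reads may be shared between both. BCYRN1 was at 0.26 (limma adjusted p = 0.0762) and RN7SK, which binds the kinase complex P-TEFb, at 0.21 (limma adjusted p = 0.463). RPPH1, the RNA of nuclear RNase P, was at 0.77 (limma adjusted p = 0.0283, but 0.0507 with edgeR and 0.218 with DESeq2), with 189, 66.8 and 93.4 in DMSO and 140, 185 and 231 in THZ531. RPPH1 and the low RNU6ATAC, at 1.23, were the 2 of the 7 called higher at a fold change of 1.5, against 15.7% of all loci. The median of the 7 was 0.26, and 0.05 relative to the mitochondrial sum. Scaled to RPL34 the median was -0.23. The libraries were selected for polyadenylated RNA, and how evenly that selection took up these transcripts was not tested. RN7SK ran from 191 to 413 among the DMSO libraries alone, and RNY1, RNY3, RNY4 and RNY5 were at 0 in all libraries.

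The nuclear genome holds pieces copied from mitochondrial DNA. Of 23 nuclear loci made of such copies over at least 50% of their length, 2 passed the minimum. The higher one, at chr13:109424137-109424375 with 99.2% identity to chrM, had 94.5, 121 and 159 in DMSO and 145, 124 and 158 in THZ531. The other joins MTRNR2L8 and MIR4485, with means of 8.75 and 18.2. Between 147 and 228 reads per library fell on all 23, between 0.000244% and 0.000321% of the counted reads.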
